A study of Mus musculus with 2 samples.

Results

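Cxcl14/Smoc2 fibroblasts of mouse limb muscle were taken as the cells whose Cxcl14, Mme, Smoc2, Col15a1 and Col6a6 programme was the most widely detected of 4 fibroblast programmes. They numbered 852 of 10891 cells that passed the filters, 327 of 5437 in the DMSO library and 525 of 5454 in the MVC library. A cell first had to be a fibroblast, with at least 1 Pdgfra UMI (unique molecular identifier, a count of captured mRNA molecules), at least 5 Dcn UMIs and fewer than 2 UMIs of the leukocyte gene Ptprc and of the endothelial gene Cdh5. Of the 2252 cells that met this gate, a member had at least 2 of the 5 programme genes detected and more of them than of any other programme. The other programmes were Pi16, Dpp4, Sbsn, Dmkn and Cd55 (group A, 67 DMSO and 79 MVC cells), Gdf10, C7, Inmt, Penk and Igfbp3 (group C, 124 and 90 cells) and Ifi205, Ptx3, Ifi211, Dio2 and Plau (group D, 236 and 182 cells).

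Fibro-adipogenic progenitors are the Pdgfra-positive fibroblasts that lie between muscle fibres and around vessels. They make most of the connective tissue matrix of muscle, help to build the basement membrane around fibres, and send growth factors and chemokines to satellite cells and leukocytes during repair. In injured or diseased muscle they can become adipocytes or matrix-depositing myofibroblasts, from which their name comes. The word parenchymal, often used for fibroblasts with this programme, refers to a place within the muscle that dissociated cells cannot show, so the cells are named here by their genes.

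The study treated aged C57BL/6 mice with the drug Maraviroc (MVC), given by intraperitoneal injection every other day, or with the vehicle DMSO. Limb muscle was digested with collagenase and dispase, live mononuclear cells were sorted, and 1 droplet single-cell library was made for each treatment, so both groups shared the strain, the advanced age and the digestion. The number of animals behind a library is not given in the sources used here. With 1 library per group no test between treatments was possible, animal, library and treatment cannot be told apart, and all intervals below are 95% intervals that cover counting error only.

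The DMSO library held 5812 barcodes and 39150511 UMIs and the MVC library 6047 barcodes and 36063575 UMIs. Members were deeper than the average cell, with a median of 10282 UMIs and 3003 genes in DMSO and 9712 UMIs and 3024 genes in MVC, against 5802 and 5195 UMIs over all kept cells. Their median share of mitochondrial UMIs was 1.53% and 1.70%. Of the kept cells, 8 barcodes occurred in both libraries, and 0 of these were shared between members. A doublet score marked 5.81% of DMSO members and 3.43% of MVC members.

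The members were chosen by the measured counts of the 20 programme genes and of Pdgfra, Dcn, Ptprc and Cdh5, so the levels of these genes describe the group and support nothing beyond it. Cxcl14 (chromosome 13, 56288643 to 56296551, minus strand, GRCm38), which encodes a secreted chemokine, stood at 3124 CPM in DMSO members and 3008 CPM in MVC members, where CPM, the usual depth-scaled count, is a gene's UMIs summed over the members of a library, per 1000000 UMIs of those cells. Smoc2 (chromosome 17, 14279506 to 14404790), a matricellular protein of the SPARC family, stood at 1326 and 2405 CPM. Cxcl14 was thus nearly level between libraries, while Smoc2 was 1.81 times as high in MVC. Col15a1 (chromosome 4, 47208161 to 47313167), a collagen of the basement membrane zone, was at 310 and 622 CPM. Col6a6 (chromosome 9, 105687809 to 105828160), a collagen VI chain, was at 190 and 265 CPM, and Mme (chromosome 3, 63241537 to 63386030), the membrane peptidase neprilysin, at 285 and 332 CPM. All 5 are protein-coding.

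Detection was wide for all 5 genes. Smoc2 had a UMI in 98.5% of DMSO and 98.9% of MVC members, Cxcl14 in 90.2% and 91.6%, and Mme in 85.6% and 84.2%. Col15a1 was found in 82.6% and 92.4% of members, so it was the programme gene whose detection differed most between libraries, and Col6a6 in 75.8% and 75.4%. With each member thinned to 2000 UMIs Col15a1 was found in 38.2% and 59.5%. As a background, the same genes were counted in cells with at least 2 UMIs of the B cell gene Cd79a and fewer than 5 of Dcn (182 DMSO and 71 MVC cells, median depths 5270 and 6072 UMIs). There Cxcl14 had a UMI in 3.85% and 2.82% of cells and the other 4 genes in 0% to 1.10%, below the members (0 of 71 cells allows a share of up to 5.06%).

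The fibroblast markers Cd34 and Ly6a, outside the rule, were found in a larger share of members than of the shallower Cd79a cells, but at equal depth this was clear for Ly6a only in DMSO. Cd34 had a UMI in 78.6% of DMSO and 84.8% of MVC members, against 1.10% and 2.82% of the Cd79a cells, and Ly6a, which encodes the Sca1 antigen also carried by lymphocytes, in 78.6% and 69.9%, against 24.2% and 50.7%. With each cell thinned to 2000 UMIs Cd34 was in 35.4% and 43.5% of members, against 0.552% and 1.45%. Ly6a was then in 40.1% and 38.1%, against 13.3% and 34.8%. Its level was 341 and 283 CPM in members and 137 and 340 CPM in the Cd79a cells, so in MVC it did not set members apart. All 20 genes of a fibro-adipogenic identity list passed the minimum of 50 UMIs over both libraries. So did 10044 of 32261 genes outside the rule, so passing it does not mark a cell type. Levels on the list were uneven, with Gsn, an actin-severing protein, at 15451 and 13473 CPM and Thy1 at 9.35 and 16.8 CPM. Markers of other cell types were read as well. The 7 B cell markers summed to 11.6 and 12.6 CPM, with Igkc the largest. Of these only Cd79b had 0 UMIs in members of both libraries (shares of up to 1.12% and 0.700% are allowed). The 12 leukocyte markers summed to 19.8 and 24.2 CPM, and 10 myofibre genes to 27.8 and 36.4 CPM. Summed levels were 149 and 173 CPM for 11 endothelial markers, 428 and 403 CPM for 10 tenocyte markers, with Thbs4 the largest, and 277 and 192 CPM for 12 pericyte and smooth muscle markers, all 12 detected in both libraries. Satellite cell markers summed to 53.9 and 73.9 CPM, with Musk the largest, Schwann and perineurial markers to 63.8 and 70.8 CPM, and haemoglobin genes to 8.50 and 12.6 CPM. The part of these transcripts in the results was not tested, except where values without doublet-scored cells are given.

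**Figure D1:**
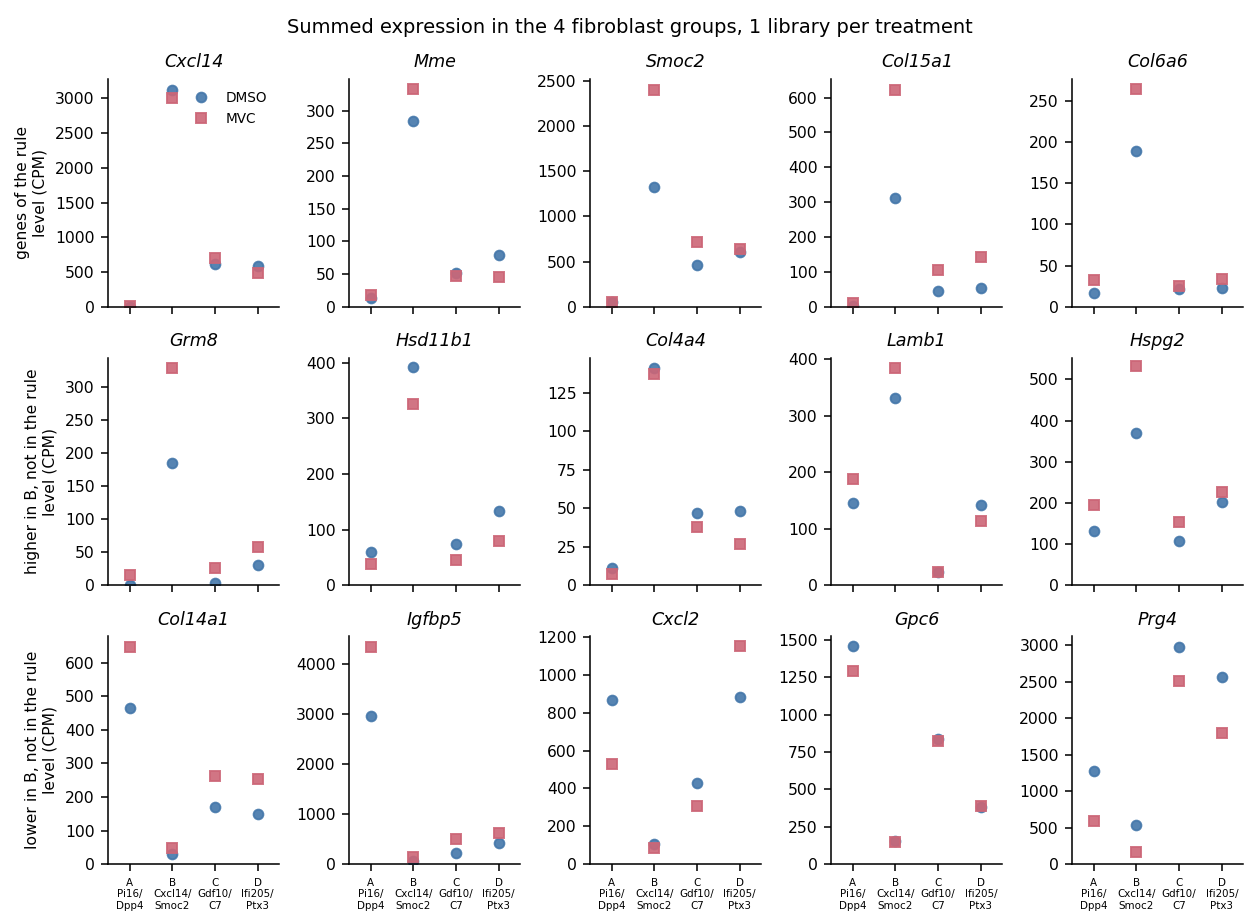
Level in CPM (y axis, linear) of 15 genes in the fibroblast groups A, B, C and D (x axis), where B are the members; each point is the summed cells of 1 library, circles for DMSO and squares for MVC. The top row shows the genes of the rule, and the lower rows show genes that the rule did not use: Grm8, at 186 and 329 CPM in members, stands above every other group in both libraries, and Col14a1, at 31.7 and 48.2 CPM, below them.

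What members shared beyond the rule was read by setting them against groups A, C and D in each library, on the log2 scale of CPM + 10. Of 10044 genes, 129 (1.28%) were more than 1.5-fold higher in members than in every other group in both libraries, and 40 (0.398%) more than 1.5-fold lower. Since the groups were cut from the same cells by genes that vary together, these differences are descriptions. Grm8, a metabotropic glutamate receptor gene, came first: it stood at 186 CPM in DMSO and 329 CPM in MVC members, against 31.5 and 58.1 CPM in group D, 3.85 and 26.9 CPM in group C, and 15.5 CPM in MVC cells of group A, where DMSO cells were at 0. Its smallest log2 difference from any group was 2.24.

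Several companions encode receptors and signalling proteins. Chrm3, a muscarinic acetylcholine receptor, was at 209 and 316 CPM (smallest log2 difference 1.05), Lifr, the receptor subunit for leukaemia inhibitory factor, at 349 and 310 CPM (0.95), and Ror1, a Wnt5a receptor, at 331 and 357 CPM (0.94). Prex2, an exchange factor for Rac, was at 229 and 267 CPM (1.09) and Arhgap18, a GTPase-activating protein, at 103 and 116 CPM. An enzyme of steroid metabolism and a regulator of lipid storage were also among them. Hsd11b1, which regenerates active glucocorticoid inside cells, was at 391 and 325 CPM in members, against 134 and 79.1 CPM in group D and less in A and C (smallest log2 difference 1.48), and G0s2, an inhibitor of triglyceride lipolysis, at 129 and 130 CPM (1.02).

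Many basement membrane genes stood highest in members. Col4a4, a collagen IV chain, was at 141 and 137 CPM in members and at most 48.6 CPM in any other group. Lamb1, the laminin beta 1 chain, was at 332 and 385 CPM, against 147 and 187 CPM in group A and 143 and 113 CPM in group D, and only 24 and 24.2 CPM in group C. Of the 20 genes tested on the list, 12 were at a higher level in members than in each other group in both libraries (13.7% of all genes were), by smallest log2 differences of 0.35 for Hmcn2, 0.40 for Lamc1, 0.50 for Col4a5, 0.53 for Col4a1, 0.56 for Col4a2, 0.84 for Lama2, 0.84 for Hspg2 (perlecan), 0.94 for Nid2, 0.98 for Col18a1, 1.0 for Lamb1, 1.04 for Col4a3 and 1.37 for Col4a4. Lamb2, the laminin beta 2 chain, went the other way and was lower in members than in every group, by at least 0.37 on the log2 scale. Vwa1, a matrix protein found next to basement membranes, was at 100 and 121 CPM (smallest difference 1.41) and Col5a3 at 272 and 372 CPM (1.02).

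Chaperone genes were also found among the companions. Dnaja1, a partner of Hsp70, was at 2243 CPM in DMSO and 2381 CPM in MVC members, against 589 to 1257 CPM elsewhere, and Dnaja4 at 149 and 211 CPM. Hspd1, the mitochondrial chaperonin, was at 1341 and 1699 CPM, but 50.1% of its 31-base words also occur in other annotated genes, so its counts are uncertain. The list of 20 endomysial genes (those of the sheath around each fibre) was divided. Higher in members than in all groups were Hsd11b1 (smallest difference 1.48), G0s2 (1.02), Crispld2 (0.80), Vtn (0.61), Itih5 (0.44), Abca8a (0.41), Hmcn2 (0.35), Adamtsl2 (0.30, at 7.09 and 18.2 CPM) and Apod (0.18). Over all genes 13.7% were. The rest of the list was not, and Cxcl12, Cygb and Fmo2 were highest in group C.

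Genes that were low in members included matrix and growth factor genes that other fibroblasts express strongly. Col14a1, a collagen that binds to the surface of fibrils, was at 31.7 and 48.2 CPM in members, against 466 and 647 CPM in group A, 169 and 264 CPM in C and 150 and 253 CPM in D. Igfbp5, a binding protein of insulin-like growth factors, was at 63.2 and 140 CPM against 2953 and 4333 CPM in group A. Cxcl2, a chemokine for neutrophils, was at 109 and 83.2 CPM against 883 and 1149 CPM in group D, and Gpc6, a glypican, at 155 and 151 CPM against 1458 and 1288 CPM in group A. Prg4 (lubricin) was at 535 and 167 CPM against 2979 and 2506 CPM in group C. Aspn, Zfp462, Mustn1, Ildr2 and C4b completed the 10 lowest, of which C4b shares 48.3% of its 31-base words with other genes, C4a above all. These 10 were ranked without a minimum of UMIs in members, among genes at 100 CPM or more in another group. The surface antigen genes Ly6a and Ly6c1 and the C1 inhibitor gene Serping1 were also lower in members than in every group, by at least 0.45, 0.70 and 0.20 on the log2 scale.

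Across 4926 genes with at least 500 UMIs over the 4 groups and both libraries, members were nearest to groups C and D and farthest from group A. The root mean square log2 difference was 0.878 in DMSO and 0.8 in MVC against group A, 0.487 and 0.5 against C, and 0.535 and 0.632 against D. Members of the MVC library differed from those of the DMSO library by 0.299, less than from any other group. The corresponding values were 0.479 for group A, 0.422 for C and 0.285 for D, and none of these is corrected for counting noise, which is larger in smaller groups.

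Members took a larger share of the MVC library. They were 6.01% (exact Clopper-Pearson interval 5.40 to 6.68) of kept cells in DMSO and 9.63% (8.86 to 10.4) in MVC, a difference of 3.61 percentage points (Newcombe interval 2.61 to 4.62). Of gated fibroblasts they were 30.7% (28.0 to 33.6) and 44.2% (41.3 to 47.1), a difference of 13.5 points (9.47 to 17.4). Group D took 22.2% and 15.3%, group C 11.7% and 7.58%, and group A 6.30% and 6.65%, while 29.1% and 26.3% of gated cells had no strictly leading programme. With each gated cell thinned to 5000 UMIs, which left out 97 DMSO and 164 MVC cells below that depth, members were 24.8% (240 of 967) and 41.6% (426 of 1024).

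This share cannot be told apart from the levels of the genes that define it. Over all gated fibroblasts Col15a1 was 2.41 times, Smoc2 1.76 times and Col6a6 1.65 times as high in MVC as in DMSO, against 1.18 times for Mme and 1.11 times for Cxcl14. The genes of the competing programmes D and C were mostly lower, with gated ratios of 0.677 for Ifi205, 0.587 for Ptx3, 0.457 for Inmt and 0.341 for Igfbp3. Gdf10 of programme C (2.13) and Dio2 of programme D (1.06) went the other way. Counting only cells with a Cxcl14 UMI after thinning to 2000 UMIs gave 44.1% of DMSO and 50.5% of MVC gated cells, a difference of 6.38 points (2.19 to 10.5), and asking for both Cxcl14 and Mme gave 15.2% and 18.9%, a difference of 3.67 points (0.512 to 6.81). At that depth the full rule gave 22.9% and 40.3%, a difference of 17.4 points. Both genes belong to the rule, so these values only describe how far the difference depends on its other genes.

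The margin of the rule was thin for many cells. Programme B led the next programme by only 1 gene in 54.4% of DMSO members (178 cells) and 34.3% of MVC members (180 cells), by 2 genes in 37.6% and 39.8%, by 3 in 7.03% and 21.1%, and by 4 in 0.917% and 4.76%. All 5 genes were detected in 52.0% and 59.4% of members. Just outside the rule, 161 DMSO and 183 MVC gated cells were tied between this and another programme. Cxcl14 stood at 2672 and 1804 CPM in the members ahead by 1 gene and at 1661 and 930 CPM in the tied cells, so tied cells were lower in Cxcl14 than members but not without it.

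**Figure D2:**
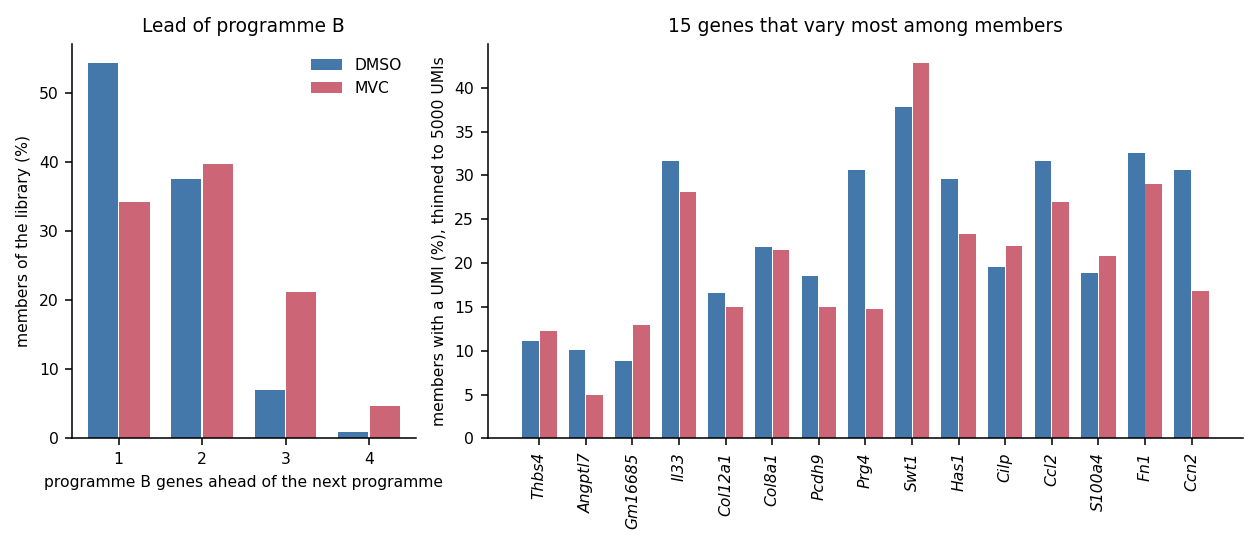
Left, the percent of members (y axis) by how many genes programme B was ahead of the next programme (x axis), for DMSO and MVC; leads of 3 or 4 genes were more frequent in MVC. Right, the percent of members with a UMI (y axis), after thinning each cell to 5000 UMIs, of the 15 genes that varied most among members (x axis); bars start at 0, and Thbs4, the most variable gene, was found in 11.1% and 12.2% of members.

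Variation among members was measured as the squared coefficient of variation beyond counting error after thinning to 5000 UMIs (307 DMSO and 441 MVC cells, with 20 and 84 shallower members left out), and genes were ranked by the smaller of their values in the libraries. The median over 1636 genes was 0.636. Thbs4, a thrombospondin of tendon and its junction with muscle, had the highest value (38.2): it was found in 11.1% and 12.2% of members, with up to 78 and 90 UMIs in a cell. Angptl7 (27.7), a secreted angiopoietin-like protein, was in 10.1% and 4.99% of members. Gm16685 (20.5) was in 8.79% and 12.9%.

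Other variable genes were spread more widely. Il33, an alarmin cytokine that sustains regulatory T cells in muscle, had a value of 15.4 and was found in 31.6% and 28.1% of members. Prg4 (10.9) was in 30.6% and 14.7%, Has1, a hyaluronan synthase (9.58), in 29.6% and 23.4%, Ccl2, a monocyte chemokine (9.0), in 31.6% and 27.0%, and Ccn2 (7.46), a matricellular growth factor modulator, in 30.6% and 16.8%. Prg4 and Ccn2 were thus the variable genes whose detection differed most between libraries. Col12a1, Col8a1, Pcdh9, Swt1, Cilp, S100a4 and Fn1 made up the rest, with values between 8.39 and 12.9, and S100a4 shares 49.2% of its 31-base words with an overlapping gene.

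Thbs4 and the cartilage intermediate layer protein gene Cilp occurred in the same cells, with a Pearson correlation across members of 0.743 in DMSO and 0.494 in MVC. Prg4 went with Cilp (0.397 and 0.435) and with Thbs4 (0.375 and 0.424), so these genes tended to be counted in the same members. Among the genes of the rule, Cxcl14 and Smoc2 correlated at 0.432 and 0.534 and Smoc2 and Col15a1 at 0.278 and 0.439. Has1 had negative correlations with all 5 programme genes, between -0.282 and -0.0836 in DMSO and between -0.325 and -0.138 in MVC, as did Prg4, between -0.262 and -0.120 and between -0.305 and -0.175. Thbs4, Cilp, Fn1, Ccl2 and Col12a1 also had negative correlations with all 5 in both libraries. These correlations are across thinned cells of 1 library, which share that library and its free RNA, and are descriptions.

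Between the libraries, 278 of 10044 genes (2.77%) were past 1.5-fold higher in MVC members and 191 (1.9%) past 1.5-fold lower, judged on CPM + 10, with a median log2 difference of 0.08 over all genes. Of the genes past the threshold, 51 higher and 71 lower ones had over 25% of their UMIs in 3 cells and were not named for size. Among the rest, Dbp, Fkbp14 and Nrep had the largest differences upward and Serpina3n, Gm17167 and Galnt15 downward. Because the rule genes also differ between libraries, a difference in which cells were counted and a difference in the level of a cell cannot be told apart in the ratios below.

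**Figure D3:**
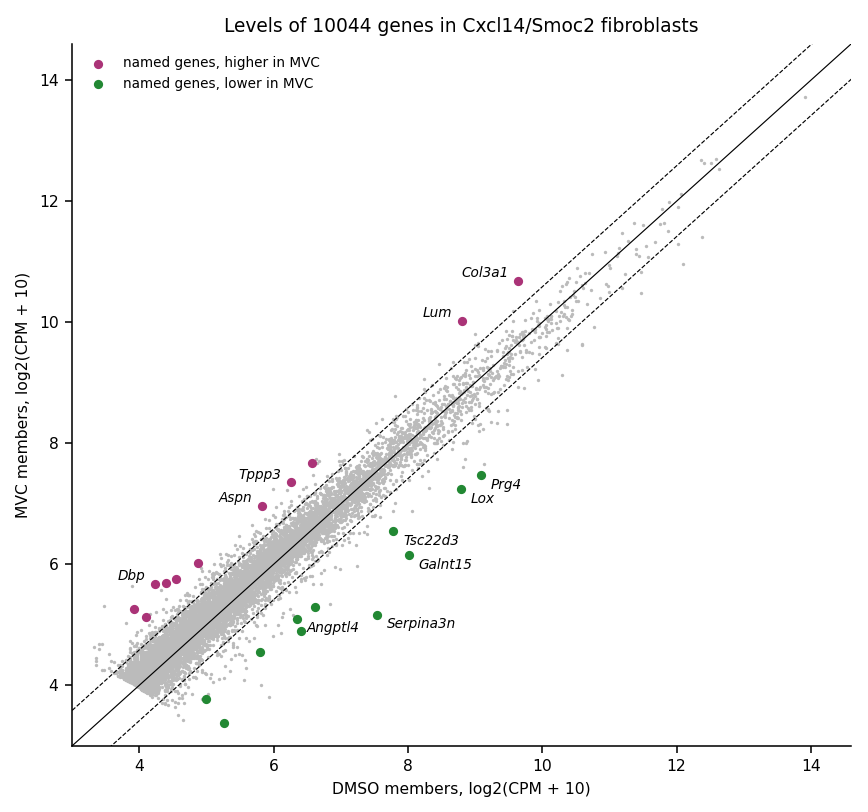
Level of each of 10044 genes in DMSO members (x axis) and MVC members (y axis), both as log2(CPM + 10); each point is a gene, the solid line marks equal levels and the dashed lines 1.5-fold. Named genes in each direction are coloured; Col3a1 and Lum are the highest expressed of those above the band, and Serpina3n lies farthest below it.

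Dbp, a transcription factor at the output of the circadian clock (chromosome 7, 45705088 to 45710203), had the largest difference among the genes higher in MVC of which 3 cells held no more than 25% of the UMIs. It had 31 UMIs (8.79 CPM) in DMSO and 212 UMIs (41.0 CPM) in MVC members, a ratio of 4.67 (3.19 to 7.04), and was found in 7.65% and 25.9% of them. Its log2 difference of 1.44 in members stood beside 1.61 in group A (3 and 29 UMIs), 1.33 in C (11 and 31) and 1.01 in D (13 and 38). Fkbp14, a prolyl isomerase that assists collagen folding, was at 5.10 and 28.4 CPM (ratio 5.57). The log2 difference of Fkbp14 was 1.35 in members, 1.48 in group A (1 and 20 UMIs), 0.48 in D and -0.01 in C (10 and 7 UMIs). Nrep stood at 11.1 and 41.4 CPM and Nxpe4 at 13.3 and 43.9 CPM. B3gnt9, a glycosyltransferase gene, was at 7.09 and 25.2 CPM.

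Lum (chromosome 10, 97565128 to 97572703), which encodes lumican, a proteoglycan that spaces collagen fibrils, was at 437 CPM in DMSO and 1029 CPM in MVC members, a ratio of 2.36 (2.23 to 2.50). Its log2 difference was 1.22 in members, 1.86 in group A, 0.80 in C and 0.28 in D. Col3a1, the fibrillar collagen III chain, was at 789 and 1633 CPM, a ratio of 2.07 (1.98 to 2.16). Aspn, a relative of lumican, was at 47.1 and 115 CPM (ratio 2.44). Outside the matrix, Tppp3, a tubulin-binding protein, was at 66.3 and 153 CPM, Rtl4 at 85.0 and 193 CPM, and the magnesium channel gene Trpm6 at 19.3 and 55.0 CPM. Trpm6 was not higher in MVC in groups A and C, with 6 and 0 UMIs in each, and had a log2 difference of 0.54 in D (6 and 15 UMIs). For Rtl4 the log2 difference was 1.10 in members, 0.25 in group A, 0.86 in C (only 3 and 10 UMIs) and 0.39 in D.

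Serpina3n (chromosome 12, 104406729 to 104414329), a secreted serine protease inhibitor of the acute phase, had the largest difference in the other direction. It was at 177 CPM (52.0% of cells) in DMSO and 25.9 CPM (14.7% of cells) in MVC members, a ratio of 0.147 (0.121 to 0.177). The gene was lower in MVC in all groups, with log2 differences of -2.38 in members, -2.76 in A, -1.44 in C and -1.48 in D. It shares 21.6% of its 31-base words with related genes. Galnt15, an enzyme that starts O-linked glycans, was at 248 and 60.9 CPM (0.246) and was also lower in every group. Lox, the enzyme that cross-links collagen and elastin, was at 434 and 142 CPM (0.326, 0.298 to 0.357), found in 73.1% and 43.8% of cells, with a log2 difference of -1.55 in members, -1.87 in group A, -0.74 in D and -0.05 in C. Angptl4, an inhibitor of lipoprotein lipase, was at 71.4 and 24.4 CPM (0.341), and Chchd10, a mitochondrial protein gene, at 21.8 and 3.68 CPM (0.168).

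Some of the largest differences were in genes that cannot be read on their own. Gm17167 had 100 UMIs in DMSO and 2 in MVC members (ratio 0.0137, 0.00163 to 0.0506), Ftl1-ps1 was at 75.1 and 19.7 CPM, Rps27rt at 88.2 and 29.2 CPM and Rpl9-ps6 at 45.4 and 13.4 CPM. Between 65.7% and 92.7% of their 31-base words occur in other genes, for the last 3 mainly in Ftl1, Rps27 and Rpl9. All 4 were lower in MVC in every fibroblast group.

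**Figure D4:**
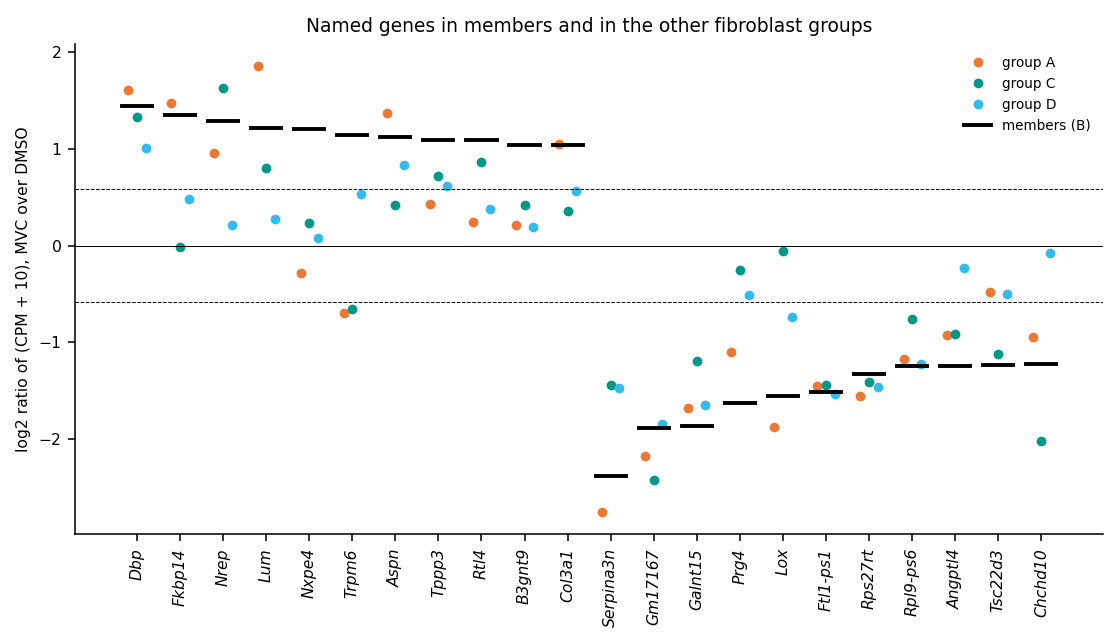
Ratio of MVC to DMSO levels on the log2 scale after adding 10 CPM (y axis), of named genes (x axis): black bars for members and coloured points for groups A, C and D, each from 1 library per treatment, with dashed lines at 1.5-fold. Dbp lies above and Serpina3n below the lines in every group, whereas Rtl4 is above them in members and group C (3 and 10 UMIs) and between them in A and D.

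Collagens and small leucine-rich proteoglycans, which coat and space collagen fibrils, were higher in MVC members as lists. Of 16 collagens tested 6 were past 1.5-fold higher and 0 lower, with a median log2 difference of 0.47, and of 10 proteoglycans 4 were higher and 0 lower (median 0.48), beside 2.77% higher and a median of 0.08 over all genes. The shares over all genes, 2.77% higher and 1.9% lower, are the background for the counts of every list below. The other groups had medians of 0.76 (A), 0.37 (C) and 0.50 (D) for the collagens and 1.05, 0.38 and 0.28 for the proteoglycans. Of the collagens past 1.5-fold higher, 3 were collagen VI chains: Col6a1 was at 342 and 626 CPM (ratio 1.83), Col6a2 at 291 and 524 CPM (1.80) and Col6a3 at 517 and 794 CPM (1.54). Col6a5, also on the list, was not among them. Col5a1 was at 162 and 281 CPM and Col27a1 at 35.2 and 68.9 CPM. The main collagen I genes were within 1.5-fold, Col1a1 at 445 and 637 CPM (1.43) and Col1a2 at 750 and 1030 CPM (1.37), and Col12a1 went the other way at 162 and 110 CPM. Of the proteoglycans, Fmod was at 51.3 and 95.8 CPM and Podn at 107 and 171 CPM, while the more abundant Ogn (850 and 1040 CPM) and Bgn (396 and 541 CPM) were within 1.5-fold. In members ahead by 2 or more programme genes Fmod had the opposite sign (log2 -0.35).

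Basement membrane genes, high in members of both libraries, were mostly within 1.5-fold between them. Of 20 tested only Sparc, a collagen-binding matricellular protein, was past 1.5-fold (751 and 1156 CPM), and the list's median was 0.12. Col4a1 was at 1613 and 1250 CPM, Lama2, the laminin chain of muscle basement membrane, at 1654 and 1792 CPM, Hspg2 at 371 and 531 CPM and Nid2 at 88.4 and 134 CPM. Elastic fibre genes had a median of 0.01, with Lox and Eln (elastin, 112 and 71.0 CPM) past 1.5-fold lower and 0 of 19 higher.

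Matrix proteases and their inhibitors were split, with 3 higher and 5 lower of 20, beside 2.77% and 1.9% of all genes, and a median of -0.08. Mmp3 (stromelysin, 29.5 and 53.6 CPM) and Adamts12 (174 and 312 CPM) were higher in MVC, as was Adamtsl2 (7.09 and 18.2 CPM). Timp1, an inhibitor of metalloproteinases, was lower at 68.6 and 24.2 CPM, as were the aggrecan-cleaving Adamts1 (594 and 315 CPM) and Adamts4 (158 and 80.5 CPM), Mmp11 and Adam12. The abundant Mmp2 and Timp2 were within 1.5-fold. Without the 3 leading cells of each gene the log2 difference of Mmp3 was 0.17 instead of 0.69, and among members ahead by 2 or more genes that of Timp1 was 0.06 instead of -1.20. Of the hyaluronan list, with a median of -0.17, only Ugdh, which makes a building block of hyaluronan, was past 1.5-fold (486 and 314 CPM) of 7 tested.

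Of 13 chemokines tested 4 were past 1.5-fold lower in MVC members and 1 higher (median -0.11), beside 1.9% and 2.77% of all genes. The monocyte chemokine gene Ccl2 was at 1308 and 739 CPM (ratio 0.565, 0.541 to 0.590), Ccl7 at 583 and 359 CPM (0.616) and Ccl8 at 21.3 and 3.87 CPM (0.182), while Cxcl13, a B cell chemokine, was at 50.7 and 4.06 CPM. The last rested in part on few cells, since without the 3 leading cells its log2 difference was -0.78 instead of -2.11. The higher one was Cxcl9, an interferon-induced T cell chemokine, with 4 and 154 UMIs in 1.22% and 3.43% of members. The most abundant neutrophil chemokine, Cxcl1, was at 3044 and 2147 CPM and the eosinophil chemokine Ccl11 at 1306 and 1206 CPM, both within 1.5-fold.

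Growth factors and cytokines of the muscle niche had a median of 0.01, with 4 higher and 3 lower of 27. Il33 was at 551 and 193 CPM (ratio 0.350, 0.324 to 0.377), but among members ahead by 2 or more programme genes its log2 difference was -0.08 instead of -1.47. Kitl, the ligand of the Kit receptor, was at 182 and 116 CPM and Vegfd was also lower. Il15, a cytokine that sustains lymphocytes, was at 19.8 and 41.2 CPM, and Fgf10 and Ptn were higher too. Igf2 had 4.54 and 14.5 CPM, but 61.9% of its 31-base words occur in another gene. Igf1, a growth factor for muscle fibres, was at 291 and 420 CPM and Il6 at 303 and 214 CPM, both within 1.5-fold.

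In the signalling lists, Bmp5 (158 and 290 CPM) and Bmper, a regulator of bone morphogenetic protein signalling (398 and 639 CPM), were higher in MVC members, and Id3, a transcriptional target of that pathway, was lower at 1240 and 551 CPM (ratio 0.445), with Id1, Inhbb (48.5 and 21.9 CPM) and Inhba. The sign of Inhba turned, to 0.40 without its 3 leading cells and to 0.37 in members ahead by 2 or more genes. That made 2 higher and 4 lower of 25 (median 0.01). Of the insulin-like growth factor binding list 3 of 7 were higher and 0 lower (median 0.06): Igfbp5 at 63.2 and 140 CPM, and the proteases Htra1 (55.8 and 113 CPM) and Pappa (61.5 and 97.5 CPM). Wnt5a, the ligand of Ror1, was at 28.6 and 51.5 CPM and was the only one of 6 Wnt genes past 1.5-fold (median 0.18). Of 12 complement genes 2 were lower and 0 higher, C4b among the lower ones, and C3 was at 543 and 651 CPM (median 0.05).

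Cyclin-dependent kinase inhibitors, which hold cells out of division, were examined because the study concerns senescence. Cdkn1a (p21, chromosome 17, 29090976 to 29100727) was at 256 CPM in DMSO and 108 CPM in MVC members, a ratio of 0.420 (0.377 to 0.467), and was found in 64.8% and 41.3% of members, against 10.4% and 7.04% of the Cd79a cells. After thinning to 2000 UMIs the shares of members were 29.2% and 14%, against 5.52% and 1.45% of the Cd79a cells. Cdkn1c (p57) differed the other way, at 90.4 and 193 CPM, a ratio of 2.14 (1.88 to 2.43). Cdkn1b was at 60.1 and 55.5 CPM and Cdkn2d at 28.1 and 21.7 CPM, both within 1.5-fold, and Cdkn2a, Cdkn2b and Cdkn2c had fewer than 50 UMIs over both libraries. Of 20 other p53 targets Btg2 (1529 and 780 CPM) and Trp53inp1 (42.5 and 17.4 CPM) were lower and 0 higher, with a median of -0.10, and Mdm2 was at 66.9 and 62.7 CPM. The study's list of classical secretory genes of senescent cells had 4 higher and 5 lower of 46 (median -0.05), beside 2.77% and 1.9% of all genes. The higher ones were Cxcl9, Il15, Il16 and Ntf3 and the lower ones Cxcl13, Ccl2, Timp1, Vegfd and Inhba. The SenMayo senescence list had 4 higher and 5 lower of 67 (median -0.09).

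**Figure D5:**
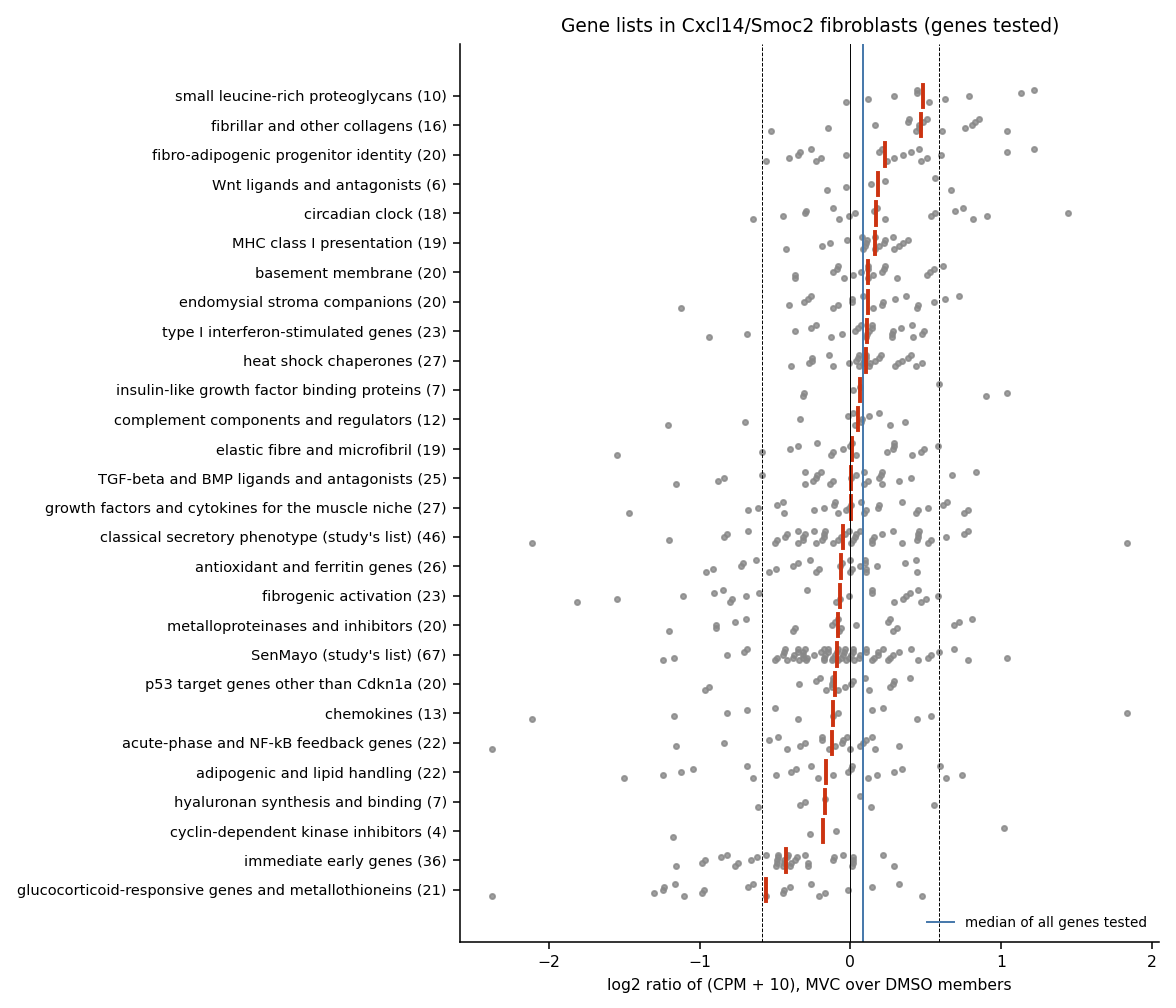
Ratio of MVC to DMSO levels in members on the log2 scale after adding 10 CPM (x axis) for the genes tested of each list (y axis, number of genes in brackets); each point is a gene, red bars are list medians, the blue line is the median of all genes (0.08) and dashed lines mark 1.5-fold. Proteoglycans (0.48) and collagens (0.47) stand at the top, immediate early genes (-0.43) and glucocorticoid-responsive genes (-0.56) at the bottom.

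Several genes of the circadian clock, the daily transcription cycle that runs in most cells, were at a higher level in MVC members. Of 18 tested, 5 were past 1.5-fold higher (2.77% of all genes were): Dbp, Bhlhe41 (5.67 and 19.3 CPM, ratio 3.41), Per3 (13.6 and 28.2 CPM, 2.08), Tef (22.4 and 44.3 CPM, 1.98) and Nr1d1 (43.1 and 83.4 CPM, 1.94). Npas2, an activator of the clock, was lower at 123 and 74.9 CPM (0.610), and its relative Arntl was at 103 and 82.6 CPM. Per2 (10.5 and 19.7 CPM) and Nr1d2 (86.7 and 133 CPM) were also higher in MVC, but within 1.5-fold once 10 CPM was added. The list's median was 0.17. The time of day at which each group's tissue was taken is not given in the sources used here, and its part in these values was not tested.

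The clock genes share short promoter elements, the E-box (CACGTG) bound by Clock and its partners and the D-box (searched as TTANGTAA) bound by Dbp and Tef themselves. Both are searched on either strand in the 250 bases before each RefSeq start site of mouse GRCm38.p6, and neither motif contains the other. An E-box was found for 5 of the 17 clock genes that have a promoter there (Bhlhe41, Ciart, Cry1, Per1 and Tef) and a D-box for 1 (Per3), against 6.86% and 2.44% of all 27025 genes. Of the 5 clock genes past 1.5-fold higher, 3 had a match, and Dbp and Nr1d1 had none in this window. The windows of Per3 and of the second start of Tef are shown because these are members of the set with a match outside any exon, with the motif in capitals; a match is a description of letters and not of binding. The Per3 window is chr4:151044666-151044915 on the minus strand, within an intron of Camta1, with D-boxes 205 and 158 bases before the start, and the Tef window is chr15:81811164-81811413 on the plus strand, within an intron of a longer Tef transcript, with an E-box 138 bases before the start.
Per3: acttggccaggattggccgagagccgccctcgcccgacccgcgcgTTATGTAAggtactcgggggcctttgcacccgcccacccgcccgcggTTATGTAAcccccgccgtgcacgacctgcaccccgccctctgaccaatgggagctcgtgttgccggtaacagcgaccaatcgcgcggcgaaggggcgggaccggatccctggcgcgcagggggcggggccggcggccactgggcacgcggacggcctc
Tef: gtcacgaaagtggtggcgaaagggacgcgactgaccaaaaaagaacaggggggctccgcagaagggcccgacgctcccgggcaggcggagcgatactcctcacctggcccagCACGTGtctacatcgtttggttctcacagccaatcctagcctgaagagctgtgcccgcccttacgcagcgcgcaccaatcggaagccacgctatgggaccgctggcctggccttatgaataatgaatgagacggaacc

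Genes that respond to glucocorticoid, listed together with the metal-binding metallothioneins, had the lowest list median. Of 21 tested 10 were past 1.5-fold lower and 0 higher, 18 lay below 0 (beside 1.9% lower and 36.5% below 0 over all genes), and the median log2 difference was -0.56 in members, beside -0.34 in group A, -0.58 in C and -0.28 in D. Tsc22d3, an anti-inflammatory mediator of the hormone, was at 210 and 83.4 CPM (ratio 0.396, 0.351 to 0.447), Mt1 at 5314 and 2708 CPM and Mt2 at 2816 and 1419 CPM. Pdk4, which restrains pyruvate use, was at 38 and 9.48 CPM, Ddit4 at 53.3 and 18.2 CPM, Sgk1 at 168 and 101 CPM and the glutamine synthetase gene Glul at 452 and 205 CPM. Cebpd, Serpina3n and Angptl4 were the remaining ones. Fkbp5 (145 and 124 CPM), Zbtb16 (359 and 240 CPM) and the receptor gene Nr3c1 itself (189 and 266 CPM) were within 1.5-fold, as was Hsd11b1.

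Immediate early genes, which are induced within minutes by growth factors, stress or tissue dissociation, were also lower as a list. Of 36 tested 9 were past 1.5-fold lower and 0 higher, 30 lay below 0, read against the same 1.9% and 36.5% over all genes, and the median was -0.43, beside -0.25 in group A, -0.26 in C and 0.04 in D. Socs3, a brake on cytokine signalling, was at 699 and 308 CPM (ratio 0.441), Fosb at 629 and 313 CPM, Klf4 at 444 and 248 CPM, Myc at 286 and 166 CPM, Ier5 at 454 and 246 CPM and the mRNA-decay factor Zfp36 at 2317 and 1505 CPM. The most abundant ones were within 1.5-fold: Egr1 was at 6362 and 5912 CPM, Jun at 3427 and 3157 CPM and Fos at 2783 and 2178 CPM. Heat shock chaperones had 0 of 27 past 1.5-fold in either direction and a median of 0.10. Acute-phase and NF-kB feedback genes had 3 lower of 22 (Serpina3n, Socs3 and Ptgs2, the last at 520 and 286 CPM) and a median of -0.12.

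Antioxidant and ferritin genes had 5 lower and 0 higher of 26 (median -0.06), beside 1.9% and 2.77% of all genes. Hmox1, which degrades haem, was at 1536 and 786 CPM, Fth1, the ferritin heavy chain, at 4147 and 2507 CPM, Gpx3 at 787 and 475 CPM, Txn1 at 577 and 370 CPM and Srxn1 at 140 and 69.9 CPM. Type I interferon-stimulated genes had Ifit1 and Rsad2 lower of 23 (median 0.11), of which Ifit1 had a log2 difference of 0.40 without its 3 leading cells, and MHC class I presentation genes 0 of 19 past 1.5-fold (median 0.17). Cytosolic ribosomal protein genes had a median of -0.04 and mitochondrially encoded genes one of 0.15.

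Lipid handling genes were mixed, with 3 higher and 6 lower of 22 (median -0.16), beside 2.77% and 1.9% of all genes. Apod, an apolipoprotein abundant in these cells, was at 4354 and 1992 CPM (ratio 0.458, 0.446 to 0.469), Plin2, the coat protein of lipid droplets, at 307 and 144 CPM, and Cebpd, an early adipogenic transcription factor, at 2821 and 1801 CPM. Zfp423, a regulator of adipocyte commitment (36.6 and 62.1 CPM), Scd2 and Apoe (277 and 422 CPM) were higher. The master regulator Pparg was low, at 5.95 and 9.48 CPM, and Lpl stood at 506 and 467 CPM. Fabp4 (105 and 30.6 CPM) and Cd36 were past 1.5-fold lower, but with doublet-scored cells removed their log2 differences were 0.37 and 0.41. Of the endomysial list 2 were higher and 1 lower of 20 (median 0.12), and of the fibro-adipogenic identity list 3 higher and 0 lower of 20 (median 0.23), the higher ones being Lum, Col3a1 and Cd34 (241 and 371 CPM).

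Fibrogenic genes had 9 lower and 0 higher of 23, beside 1.9% and 2.77% of all genes, with a median of -0.07. Thbs1, a thrombospondin that activates latent TGF-beta, was at 1733 and 959 CPM (ratio 0.554, 0.533 to 0.575), Thbs2 at 213 and 119 CPM, Ccn2 at 210 and 107 CPM and Ccn5 at 38 and 17.6 CPM, besides Lox, Adam12 and the matrix protein gene Tnc (48.8 and 28.6 CPM). The contractile genes Acta2 (46.2 and 6.0 CPM) and Tagln (30.9 and 8.90 CPM) belong to smooth muscle as well, and the summed pericyte and smooth muscle markers were 0.694 times as high in MVC members (0.634 to 0.759). With doublet-scored cells removed, the log2 difference was 0.43 for Acta2 instead of -1.81 and -0.09 for Tagln instead of -1.11. Among members ahead by 2 or more genes that of Tnc was 0.11 instead of -0.60. The matrix genes Fn1 (206 and 253 CPM), Postn (15.3 and 18.0 CPM) and Fap (251 and 328 CPM) were within 1.5-fold.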

How the data were processed

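The deposited files were raw UMI counts per gene and cell, made by the authors with Cell Ranger 7.0.0 on mm10, and Seurat 5.0.1 is also named in the submitters' processing notes. They hold 1 library per treatment, and no normalization had been applied. Cells with fewer than 500 genes or over 10% mitochondrial UMIs were removed, as in the study's methods. The members and all gene lists were chosen with earlier results of these data known.

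Counts of members were summed per library, scaled to CPM, and compared as log2 ratios after adding 10 CPM. Genes entered with 50 or more UMIs in the members of both libraries together. Genes of the rule were left out. A ratio past 1.5-fold was called by size, without a test, and ratios carry exact conditional intervals and shares exact or Newcombe intervals, all at 95% (Python 3.11.15, numpy 2.4.6, scipy 1.17.1, pandas 2.3.3, matplotlib 3.10.9). The code was tested on simulated data.

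Named genes were the 12 largest differences in each direction, leaving out genes with over 25% of UMIs in 3 cells and mitochondrial, immunoglobulin, haemoglobin and sex-linked genes, the 15 highest and 10 lowest companions (100 CPM or more), the 15 most variable genes, and from each list the genes past 1.5-fold with its most abundant ones. Some of these genes are not reported here. Other list genes are named as examples chosen after their values were seen. Doublets were scored by simulation and kept, and removed in an alternative. Free RNA was not corrected. Gene positions are from GENCODE M21, where 32235 of 32285 gene identifiers were found, and promoter sequences from RefSeq. Members ahead by 2 genes, tied cells, members counted after thinning and definitions by Cxcl14 and Mme alone were added after the data were seen.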

Additional observations from a re-analysis of the deposited data

Results flagged for a closer look

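For 7 genes the level was past 1.5-fold in members in one direction and past 1.5-fold in another fibroblast group in the opposite direction, and this opposite direction is why they are listed; with 1 library per treatment no difference between groups was tested, and many counts in the smaller groups were low. Against group A, Mmp3 had a log2 difference (MVC over DMSO) of 0.69 in members and -1.46 in A (61 and 16 UMIs), Plin2 one of -1.05 and 1.14 (17 and 49 UMIs), Thbs1 one of -0.85 and 2.10 (35 and 181 UMIs) and Zfp36 one of -0.62 and 1.40 (117 and 323 UMIs). Timp1 was at -1.20 in members, 0.74 in A (22 and 43 UMIs) and 1.18 in C (22 and 45 UMIs). Kitl was at -0.61 in members, 1.16 in A (30 and 79 UMIs) and 0.62 in C (73 and 84 UMIs). Tnc was at -0.60 in members, 1.66 in C (80 and 197 UMIs) and 0.70 in D (163 and 194 UMIs).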

How the results depend on the processing

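No paired analysis was possible because each treatment had 1 library and no result comes from a test. The member share of kept cells differed by 3.61 points, and by 4.63 with stricter cell filters, 7.51 after thinning to 5000 UMIs and 5.54 after thinning to 2000. The thinned values are shares of the kept cells at least that deep, so they differ from the first in denominator as well as in thinning. Its difference of 13.5 points among gated cells was 3.67 with Cxcl14 and Mme alone and 6.38 with Cxcl14 alone. The 278 genes higher in MVC became 177 with median-ratio scaling, 982 with a pseudocount of 1 CPM and 425 in members ahead by 2 or more genes, and the 191 lower ones became 382 with a pseudocount of 1 and 126 without each gene's 3 leading cells. Median-ratio scaling moved the list medians to -0.51 for immediate early genes and 0.0197 for heat shock chaperones, and the mean of per-cell CPM to 0.0221 for chaperones and 0.28 for interferon genes; the cause was not tested. Over these settings the median of all genes ranged from 0.02 to 0.12.

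Of 123 named genes 13 had the other sign in some setting, 9 of them with a counting interval that left out 0, at the following log2 values. With doublet-scored cells removed these were Fabp4 (0.37), Cd36 (0.41), Acta2 (0.43) and Rgs5 (0.49). Without the 3 leading cells they were Inhba (0.40), Fabp4 (0.0146), Acta2 (0.20), Ifit1 (0.40) and Rgs5 (0.11). In members ahead by 2 or more genes they were Fmod (-0.35), Timp1 (0.0641), Inhba (0.37), Fabp4 (0.44), Cd36 (0.20) and Tnc (0.11). Counts per library limit genes near 50 UMIs most.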
